A study of Mus musculus with 35 samples.

Results

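The cornified envelope genes described here were every gene whose symbol starts with Lce, or with Sprr and a digit, together with Flg2 (filaggrin 2), Lor (loricrin), Ivl (involucrin), Hrnr (hornerin), Rptn (repetin) and Crnn (cornulin). Of 22830 gene symbols with counts, 39 were members, namely 15 Sprr genes, 18 Lce genes and 6 other genes, called the single genes below. The symbols divide the Lce genes into 14 Lce1 and Lce6 genes and 4 Lce3 genes. Flg was not analysed here. RNA came from the wounded dorsal skin of mice aged 8 to 12 weeks, in 35 libraries and 8 groups. Every animal carried floxed Col5a1 alleles (Col5a1 fl/fl) and received tamoxifen around the time of wounding. In Col5a1CKO animals a Col1a2CreERT transgene, active in fibroblasts and not in the keratinocytes that express the cornified envelope genes, deletes Col5a1, which encodes a chain of type V collagen. WT animals were the littermates without Cre. At day 14 after wounding the series held 7 wounds of WT, 7 of Col5a1CKO, and 3 of Col5a1CKO given WT fibroblasts into the wound bed at day 3; at day 19 it held 3 WT and 3 Col5a1CKO wounds. The treatment label of the day 19 Col5a1CKO wounds also mentions WT fibroblasts while their titles do not. For the 3 day 14 wounds titled as given fibroblasts, the treatment label says only wounded. Both groups were placed by title, so the labels leave it unclear which of them was injected. A second experiment held 4 vehicle-treated WT, 4 vehicle-treated Col5a1CKO and 4 Col5a1CKO wounds at day 14 treated daily with cilengitide, an inhibitor of the integrin αvβ3, at 20 mg/kg. Unwounded skin was not analysed here. In the study's legends the 7 WT and 7 Col5a1CKO wounds at day 14 of the time-course are named as given vehicle. Its methods give PBS as the control for mice without fibroblasts. Below, uninjected means given no fibroblasts, and vehicle-treated names only the groups of the cilengitide experiment.

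The cornified envelope is the sheet of crosslinked protein that replaces the cell membrane of keratinocytes in the outermost epidermis. Involucrin is laid down first as a scaffold, loricrin makes up much of the mature envelope, and the small proline-rich (Sprr) and late cornified envelope (Lce) proteins are joined to it by transglutaminases. Many Sprr genes and the Lce3 genes are known to be induced in wounded or inflamed epidermis, whereas Lce1 and Lce6 genes are expressed in the late-differentiating layers of normal epidermis. Filaggrin 2, hornerin, repetin and cornulin are S100-fused proteins of the granular and cornified layers.

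All members with a position lay together in the epidermal differentiation complex on chromosome 3. In the mm9 build with GENCODE vM1 annotation, 38 of the 39 (all but Lce1k) spanned chr3:91884197-93203364, a stretch of 1319 kb. Lor came first, followed by 11 Sprr2 genes within 218 kb and Sprr1b, Sprr3, Sprr1a and Sprr4 within 64 kb. Ivl separated them from 13 of the 14 Lce1 and Lce6 genes, which were spread over 399 kb, and the 4 Lce3 genes occupied 68 kb inside that stretch. Crnn, Flg2, Hrnr and Rptn closed the cluster.

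The promoters of the Sprr and Lce genes differed in short sequence motifs. RefSeq windows (GRCm38.p6 build, 250 bases before to 50 bases after the start) were at hand for 36 of the 39 members and for 27025 genes in all. The AP-1 pattern TGANTCA, read on both strands, was in 7 of 9 Sprr2 windows, 2 of 4 windows of Sprr1, Sprr3 and Sprr4, 5 of 6 of the single genes, 0 of 13 Lce1 and Lce6 windows and 0 of 4 Lce3 windows, against 7.93% of all windows. The TATA box pattern TATAAA was in 77.8% of the Sprr2 windows and 23.1% of the Lce1 and Lce6 windows, against 14.2% of all windows. The antioxidant response element pattern TGACNNNGC, which can overlap an AP-1 match, was in 2 of 13 Lce1 and Lce6 windows and 1 of 9 Sprr2 windows, against 12.5% of all windows. These are matches of letters and not measured binding. Below, 5 promoters are printed to show this contrast, each from 220 bases before to 30 bases after the start on the gene's own strand, with matches to the 3 patterns in capitals. The Lce1a1 window, chr3:92648278-92648527 on the minus strand, holds none of the patterns, and that of Lce3c, chr3:92944266-92944515 on the plus strand, holds 2 antioxidant response element matches. The windows of Sprr2d, chr3:92338920-92339169, and Sprr2i, chr3:92407771-92408020, both on the plus strand, carry an AP-1 match at -193 and a TATA box match at -29 from the start. The window of Lor, chr3:92083113-92083362 on the minus strand, carries them at -48 and -27.
Lce1a1: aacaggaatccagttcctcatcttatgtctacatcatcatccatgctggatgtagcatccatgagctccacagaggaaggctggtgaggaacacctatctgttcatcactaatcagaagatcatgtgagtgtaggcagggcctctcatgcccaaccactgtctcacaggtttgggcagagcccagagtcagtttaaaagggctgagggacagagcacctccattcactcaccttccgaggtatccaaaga
Lce3c: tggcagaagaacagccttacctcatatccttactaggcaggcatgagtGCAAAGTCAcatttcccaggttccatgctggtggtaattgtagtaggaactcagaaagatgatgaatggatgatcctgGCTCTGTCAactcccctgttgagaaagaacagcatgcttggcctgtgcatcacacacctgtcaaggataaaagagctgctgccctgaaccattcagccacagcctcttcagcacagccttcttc
Sprr2d: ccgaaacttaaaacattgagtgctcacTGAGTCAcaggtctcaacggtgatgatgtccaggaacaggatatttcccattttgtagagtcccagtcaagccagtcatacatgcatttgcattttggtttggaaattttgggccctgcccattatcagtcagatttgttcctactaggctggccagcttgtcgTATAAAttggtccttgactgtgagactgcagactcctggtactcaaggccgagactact
Sprr2i: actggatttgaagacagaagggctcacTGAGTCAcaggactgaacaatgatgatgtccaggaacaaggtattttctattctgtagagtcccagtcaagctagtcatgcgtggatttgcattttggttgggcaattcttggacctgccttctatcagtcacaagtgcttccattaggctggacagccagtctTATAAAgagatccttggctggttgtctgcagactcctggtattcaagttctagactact
Lor: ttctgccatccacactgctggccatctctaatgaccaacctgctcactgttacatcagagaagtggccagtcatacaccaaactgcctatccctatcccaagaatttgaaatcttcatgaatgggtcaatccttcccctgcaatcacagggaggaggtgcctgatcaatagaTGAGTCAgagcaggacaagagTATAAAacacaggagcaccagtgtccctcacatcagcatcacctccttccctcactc

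The libraries held 15043531 to 35700325 counts in the time-course and 51211600 to 68266760 in the cilengitide experiment. Levels below are CPM, counts scaled to library size with TMM within each experiment. Col5a1 ran from 170 to 663.3 CPM in Col5a1CKO and from 346.6 to 2385.9 CPM in WT wounds at day 14, so the ranges overlapped, and its difference did not pass the test (log2 fold change -1.43, SE 0.49, adjusted p = 0.0757 by edgeR's quasi-likelihood test). A gap in the GC content of the libraries parted them into 2 sets: at day 14 the lower set held replicates a to d of WT and a to e of Col5a1CKO, and all other time-course libraries formed the upper set. The labels do not say what these sets are, so day 19 and fibroblast-injected wounds can be compared with day 14 wounds of the same set only in part. The share of keratinocyte RNA also varied between wounds. Krt5 and Krt14, the basal keratins, together had 8389.2 to 45175.1 CPM in WT wounds at day 14 and between 12.68 and 22364.5 CPM in those of Col5a1CKO, where replicates d and g held 17440.1 and 22364.5 CPM and the other 5 held at most 1778.3 CPM. In bulk tissue fewer keratinocytes and less RNA per keratinocyte cannot be told apart.

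Among the members, the order of levels differed between WT and Col5a1CKO wounds at day 14. Per transcript length (RPKM), Rptn had the highest median in WT wounds at 906, followed by Lce1a1 at 259.5, Sprr1b at 250.7, Lce1b at 211.7 and Lce1d at 207.5. In Col5a1CKO wounds the top 4 medians were those of Sprr2d (27.48), Sprr1a (27.36), Sprr1b (23.26) and Sprr2i (5.408), all Sprr genes. The highest medians were Sprr1a (1000.5), Sprr1b (812.5) and Sprr2d (673.2) in the fibroblast-injected wounds, and Sprr1b (301.4), Sprr1a (282.3) and Sprr2d (160.5) in Col5a1CKO wounds at day 19. In WT wounds at day 19 Lor led at 761.4, before Sprr1a at 288.2 and Sprr1b at 185.9. In WT replicates e, f and g at day 14, those of the upper library set, Lor (2878.1, 2683.7 and 1018.0) was above Rptn (435.8, 697.3 and 379.4). All day 19 wounds are in that set, so the different leading gene at day 19 was not separated from library set. Each median named here, also that of the leading gene, exceeded the next in its order by less than the gene's own range over the wounds of the group.

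**Figure D1:**
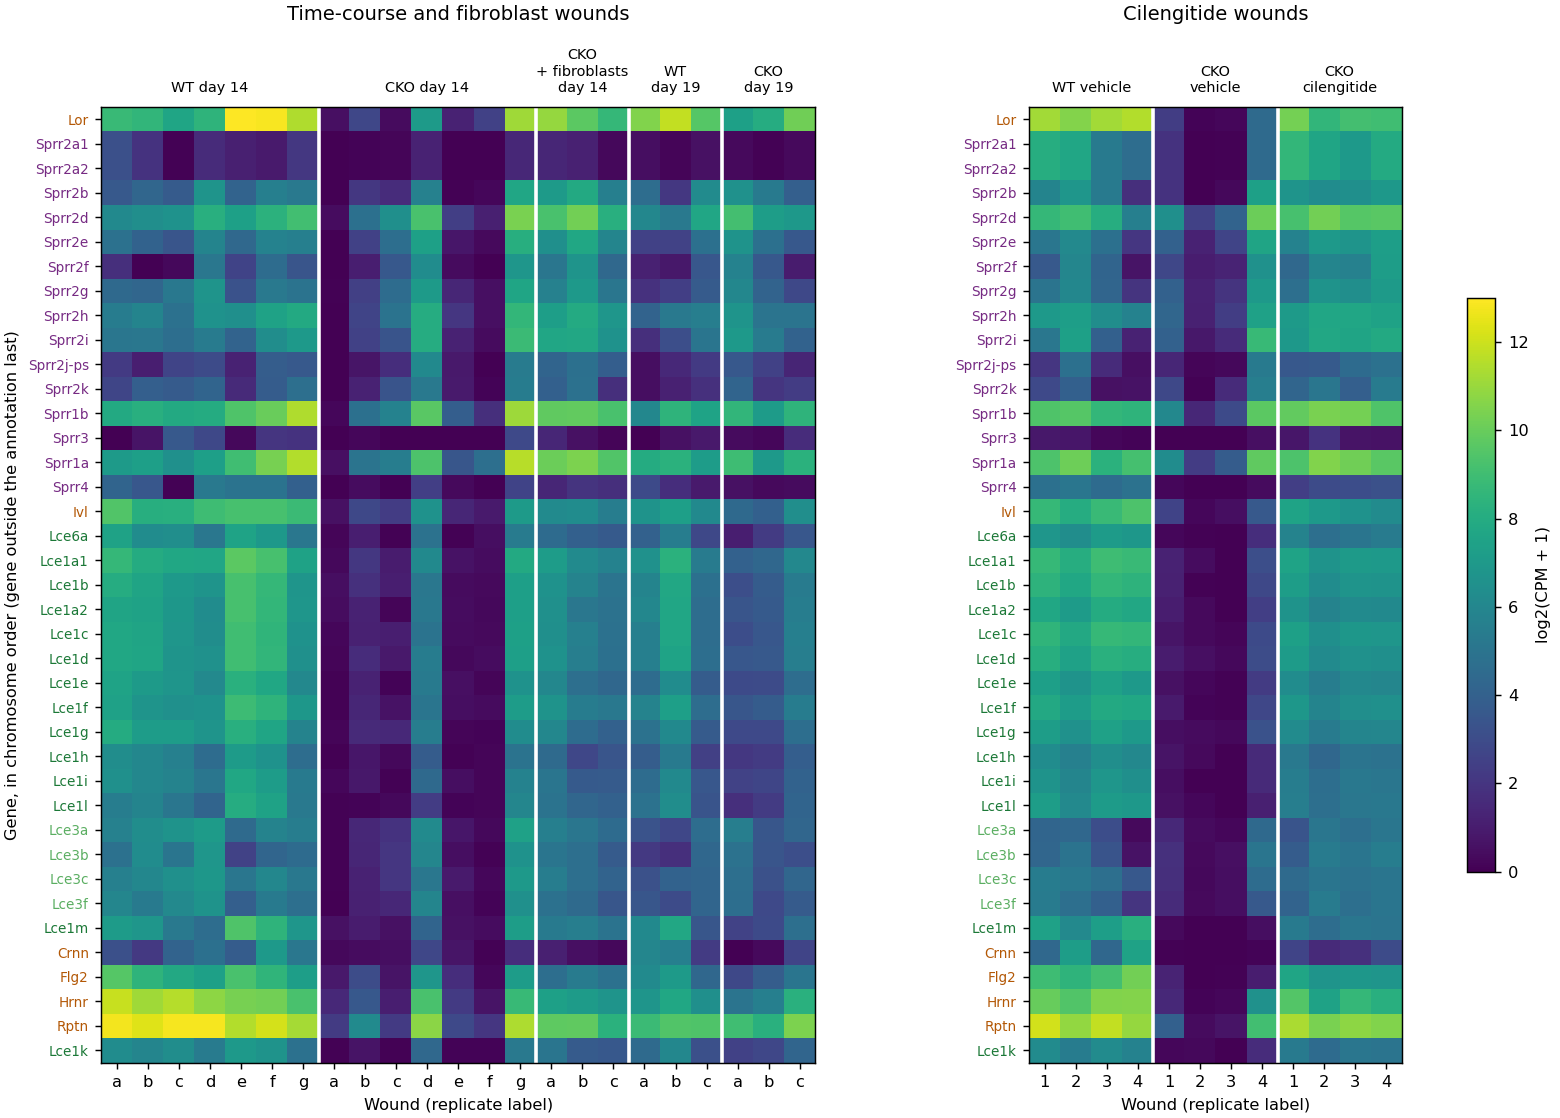
Heat map of the level of the 39 members (vertical, in chromosome order with Lce1k last) in each of the 35 wounds (horizontal, by group), as log2(CPM + 1). The Lce1 and Lce6 genes are dark in 5 of 7 Col5a1CKO wounds at day 14 and in the vehicle-treated Col5a1CKO wounds, where Krt5 and Krt14 were also low in most wounds, while the Sprr genes reach WT levels in the wounds with more keratin RNA.

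The day 14 comparison asked how loss of fibroblast Col5a1 changes the injured tissue. Lce1 and Lce6 genes had negative differences without exception and the Sprr genes had no common direction, but the spread between Col5a1CKO wounds was wide and among the 38 members tested only Crnn and Ivl were called. A gene was called where its adjusted p (edgeR's quasi-likelihood test, Benjamini-Hochberg over all genes tested) was below 0.05 and its change at least 2-fold. Of all 14367 genes tested, 5.57% were called higher and 2.71% lower in Col5a1CKO wounds (800 and 390 genes; 1018 and 246 when scaled by library size only). Of the 38 members, 0 were called higher and 2 lower, a count too small to set against that share. At an unadjusted p below 0.05, 18 members differed and each of them was lower, while of all genes 2047 were higher and 1893 lower. DESeq2 called 0 members higher and 19 lower, and 1245 and 850 of all genes.

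Among the Lce1 and Lce6 genes, Lce1a1 had 176, 257.7 and 851.8 CPM (lowest, median and highest) in WT wounds and 0.230, 1.01 and 235.3 CPM in Col5a1CKO wounds. The ranges overlapped only through Col5a1CKO replicate g, which held 235.3 CPM; replicate d was next at 71.34 CPM. Lce6a had 34.5, 83.97 and 184.7 CPM in WT and 0.0438, 0.373 and 41.16 CPM in Col5a1CKO wounds (log2 fold change -3.31, SE 1.31, adjusted p = 0.118). Lce1h, the member of the group with the most negative difference, had 22.92, 64.01 and 138.2 CPM against 0, 0.219 and 29.82 CPM (log2 fold change -3.41, SE 1.29, adjusted p = 0.103). The 14 differences were tightly grouped, between -3.41 and -2.91 with a median of -3.06, beside a median of -0.03 over all genes, and 13 had an unadjusted p below 0.05. None passed the adjusted threshold. Lce1g was at -3.18 (SE 1.29, adjusted p = 0.126). Over the group, the gene medians ran from 44.57 (Lce1l) to 257.7 CPM (Lce1a1) in WT and from 0.0999 (Lce1k) to 1.84 CPM (Lce1g) in Col5a1CKO wounds.

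The 4 Lce3 genes had smaller differences, with a median of -1.07 and a range of -1.44 to -0.81. Lce3c had 32.92, 62.55 and 116 CPM in WT and 0.0574, 1.35 and 123 CPM in Col5a1CKO wounds, so its highest Col5a1CKO wound exceeded its highest WT wound. Lce3a had 21.47, 56.1 and 141.2 CPM in WT and 0.0574, 1.75 and 170.9 CPM in Col5a1CKO wounds. The WT and Col5a1CKO wounds overlapped for both genes.

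The Sprr genes, whose products are crosslinking substrates and bridges of the envelope, had a median difference of 0.10, with 8 positive and 6 negative values among the 14 tested. Sprr1a had 91.32, 160.5 and 2903.1 CPM in WT and 0.459, 30.69 and 3054.8 CPM in Col5a1CKO wounds (log2 fold change -0.40, SE 1.37, adjusted p = 0.882). Sprr2d had 70.95, 163.6 and 539.9 CPM in WT and 0.344, 26.57 and 1311 CPM in Col5a1CKO wounds (log2 fold change 0.42, SE 1.26, adjusted p = 0.864). Sprr2i had 16.8, 34.44 and 127.4 CPM against 0, 4.74 and 456.6 CPM. For these genes the lowest and the highest wound of the whole comparison were both Col5a1CKO wounds. Sprr4 was the most negative of the family at -3.74 (SE 1.3, adjusted p = 0.0788), with 0.0728, 17.37 and 36.74 CPM in WT and 0, 0.25 and 5.13 CPM in Col5a1CKO wounds. Sprr3, an Sprr gene of internal epithelia, was too low to be tested, at 0 in 5 of 7 Col5a1CKO wounds. Sprr2a1 and Sprr2a2, whose gene models overlap, had the same counts in every library, and their values stand for the pair. Both genes enter the counts, means and medians of every comparison, although they hold a single measurement. Each of them had a log2 fold change of -2.43 (SE 1.23, adjusted p = 0.215). Over the family, the gene medians ran from 1.99 (Sprr2a1) to 288.3 CPM (Sprr1b) in WT and from 0 (Sprr3) to 30.69 CPM (Sprr1a) in Col5a1CKO wounds.

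The single genes were the lowest group, with a median difference of -3.51. Crnn fell (log2 fold change -4.55, SE 1.04, adjusted p = 0.0153), from 3.51, 16.3 and 131.4 CPM in WT to 0.0621, 0.394 and 5.78 CPM in Col5a1CKO wounds, with a small overlap. Ivl fell as well (log2 fold change -3.78, SE 1.14, adjusted p = 0.0475), from 279.6, 497.2 and 703.8 CPM to 0.517, 3.94 and 134.5 CPM, and its groups did not overlap. Flg2 (log2 fold change -3.28, SE 1.26, adjusted p = 0.11) and Hrnr (log2 fold change -3.73, SE 1.42, adjusted p = 0.108) also had no overlap between groups but did not pass the test. Flg2, Hrnr and Ivl were the 3 members whose groups were apart, each lower in Col5a1CKO wounds, as were 1.3% of all genes. Lor had 199.7, 439.2 and 8144.6 CPM in WT and 0.307, 4.66 and 2259 CPM in Col5a1CKO wounds (log2 fold change -2.97, SE 1.77, adjusted p = 0.294). Rptn, the member with the highest median in WT wounds, had 2390.8, 5268.6 and 7165.9 CPM there and 3.14, 6.20 and 2683.1 CPM in Col5a1CKO wounds (log2 fold change -3.01, SE 1.41, adjusted p = 0.183).

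Leaving out Col5a1CKO replicate g raised the lower calls among members from 2 to 19, of which 14 were Lce1 and Lce6 genes. Lower calls over all genes rose from 390 to 984 in the same fit. The median of the Lce1 and Lce6 genes moved to -4.89, that of Lce3 to -2.34 and that of Sprr from 0.10 to -0.95. Leaving out any other wound except WT replicate c or Col5a1CKO replicate d left 1 member called lower. The Sprr median was also negative without Col5a1CKO replicate d (-0.45), WT replicate a (-0.06) or WT replicate e (-0.08), so its sign rested on single wounds. Within the lower library set the medians were -4.12 for Lce1 and Lce6 and -0.10 for Sprr, and within the upper set -2.09 and 0.76.

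Few other genes of cornification or keratinocyte markers were called at day 14, and most of their differences were negative. Of 18 genes for crosslinking and processing of the envelope, 0 were called and the median was -2.31. Of 13 transcription factors of keratinocyte differentiation, 0 were called and the median was -1.49, with 4 positive. Of 11 other genes of the differentiation complex, 2 fell, both known from the hair follicle, namely S100a3 (log2 fold change -6.26, adjusted p = 0.0112) and Tchh, which encodes trichohyalin (log2 fold change -4.71, adjusted p = 0.0179). Of 6 basal keratinocyte markers 0 were called, with a median of -1.74, and of 6 suprabasal markers 0, with a median of -3.13. Of 4 wound-edge keratinocyte markers (Krt6a, Krt6b, Krt16 and Krt17) 0 were called, with a median of -1.41. Of 5 leukocyte markers 3 rose, among them Itgam, a myeloid integrin (log2 fold change 2.55). Their summed level ran from 1321.2 to 9042 CPM over WT wounds and from 2005.1 to 20572.8 CPM over Col5a1CKO wounds. S100a8 and S100a9 are in this list and in that of the other differentiation complex genes, so the sums of the lists are not independent. In Col5a1CKO replicate a, the wound with 20572.8 CPM, the other list summed to 19093.0 CPM. Of 5 fibroblast markers 1 rose, Pdgfra (log2 fold change 2.36). Of the 3 hair shaft markers tested 2 fell, the hair keratins Krt33b (-5.82) and Krt35 (-6.70). The part of these values in the differences of the envelope genes was not tested.

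Sprr genes were also set against the Lce genes of the same wound. For each wound the mean log2(CPM + 1) over the Lce genes was subtracted from that over the Sprr genes. At day 14 the difference was -3.39, -2.78 and -0.19 (lowest, median and highest) over the WT wounds and -0.10, 0.77 and 2.22 over the Col5a1CKO wounds, without overlap. Taken instead as the log2 ratio of summed CPM, which the most abundant genes lead, it was -2.11, -1.56 and 2.47 over WT and -1.32, 2.25 and 4.01 over Col5a1CKO wounds, so that the groups overlapped. This is a description of the members, with no test. In the Col5a1CKO wounds with the least epithelial RNA both means were near 0, as in replicate a (0.09 for Sprr and 0.18 for Lce), so their difference was small by construction. Replicate a gave the lowest Col5a1CKO difference, -0.10, just above the highest WT value of -0.19. By the log2 ratio of sums the same wound was at -1.32, within the WT range. The lack of overlap at day 14 thus depended on the measure. The fibroblast-injected wounds lay between -0.21 and 1.22. At day 19 WT wounds had -3.08, -2.0 and -0.15 and Col5a1CKO wounds -1.25, 0.52 and 1.71, with overlap. In the cilengitide experiment, vehicle-treated WT wounds ran from -2.65 to 0.25, vehicle-treated Col5a1CKO wounds from 0.54 to 3.66, and cilengitide-treated wounds from 0.38 to 1.38; both Col5a1CKO groups were above all vehicle-treated WT wounds, and were so too by the log2 ratio of summed CPM (at most 0.932 in WT, at least 2.15 under vehicle and 1.38 under cilengitide in Col5a1CKO wounds).

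**Figure D2:**
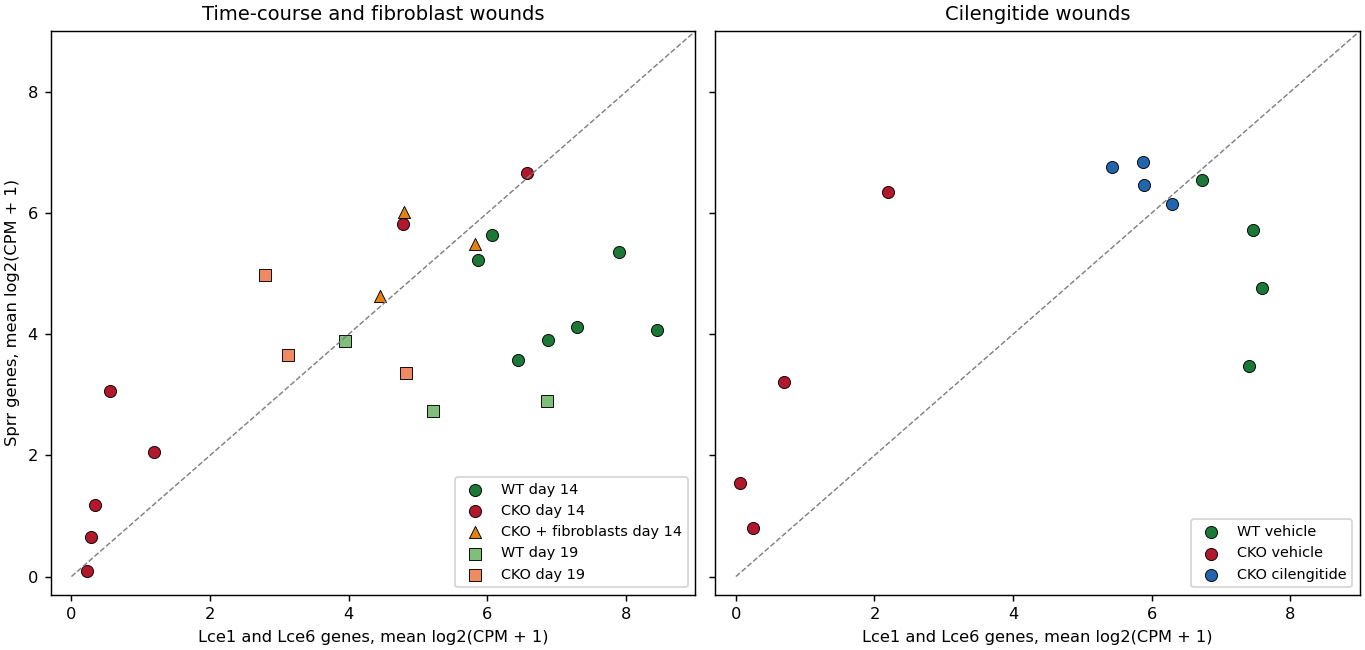
Mean log2(CPM + 1) of the Sprr genes (vertical axis) against that of the Lce1 and Lce6 genes (horizontal axis), 1 point for each wound, with a dashed line of equality. Most WT wounds lie below the line, while most Col5a1CKO wounds, injected or not, vehicle-treated or cilengitide-treated, lie on or above it.

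The Lce3 genes were also set against the Lce1 and Lce6 genes of the same wound. Their mean score less that of the Lce1 and Lce6 genes averaged -1.43 in WT and 0.41 in Col5a1CKO wounds at day 14, with overlap. It averaged -3.53 in vehicle-treated WT and 0.91 in vehicle-treated Col5a1CKO wounds, with no overlap, and -1.06 in the cilengitide-treated wounds, all of which were below the vehicle-treated Col5a1CKO wounds.

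Dividing by the basal keratins gives each family's level relative to basal keratin RNA, which does not measure the RNA of all keratinocytes. Per 1000 CPM of Krt5 plus Krt14, the summed Sprr level was 33.45, 69.43 and 201.9 CPM in WT and 81.45, 181.4 and 526.9 CPM in Col5a1CKO wounds at day 14, with overlap, and 249.3 to 259.3 CPM in the fibroblast-injected wounds, above every WT wound. At day 19 it was 59.01, 88.28 and 129.8 CPM in WT and 148.4, 175.5 and 271.4 CPM in Col5a1CKO wounds, and under vehicle 78.84, 113.1 and 192.7 CPM in WT and 215.4, 355.6 and 413.1 CPM in Col5a1CKO wounds. Neither of these last pairs of groups overlapped. On the same scale the Lce1 and Lce6 genes had 24.34, 113.8 and 299.1 CPM in WT and 4.36, 32.05 and 190 CPM in Col5a1CKO wounds at day 14. Under vehicle they had 94.87, 166.2 and 256.1 CPM in WT and 4.17, 6.09 and 56.67 CPM in Col5a1CKO wounds, with no overlap. The Lce3 genes had 1.33, 4.75 and 6.08 CPM in vehicle-treated WT and 5.81, 9.08 and 22.14 CPM in vehicle-treated Col5a1CKO wounds, with overlap. So per basal keratin the Sprr genes were higher, and the Lce1 and Lce6 genes lower, in vehicle-treated Col5a1CKO wounds. Per 1000 CPM of the suprabasal keratins Krt1 plus Krt10, by contrast, the Lce1 and Lce6 genes had 37.5, 40.11 and 43.15 CPM in vehicle-treated WT wounds. In vehicle-treated Col5a1CKO wounds they had 48.66, 61.04 and 281.5 CPM, where that keratin sum was only 9.42 to 933.9 CPM. Krt5 plus Krt14 was also low in some Col5a1CKO wounds, at 46.78 and 149.9 CPM in vehicle-treated replicates 2 and 3. At day 14 it was 12.68 and 59.5 CPM in replicates a and f, which gave the lowest and highest Sprr values of that group. Replicate a also gave its highest Lce1 and Lce6 value.

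**Figure D3:**
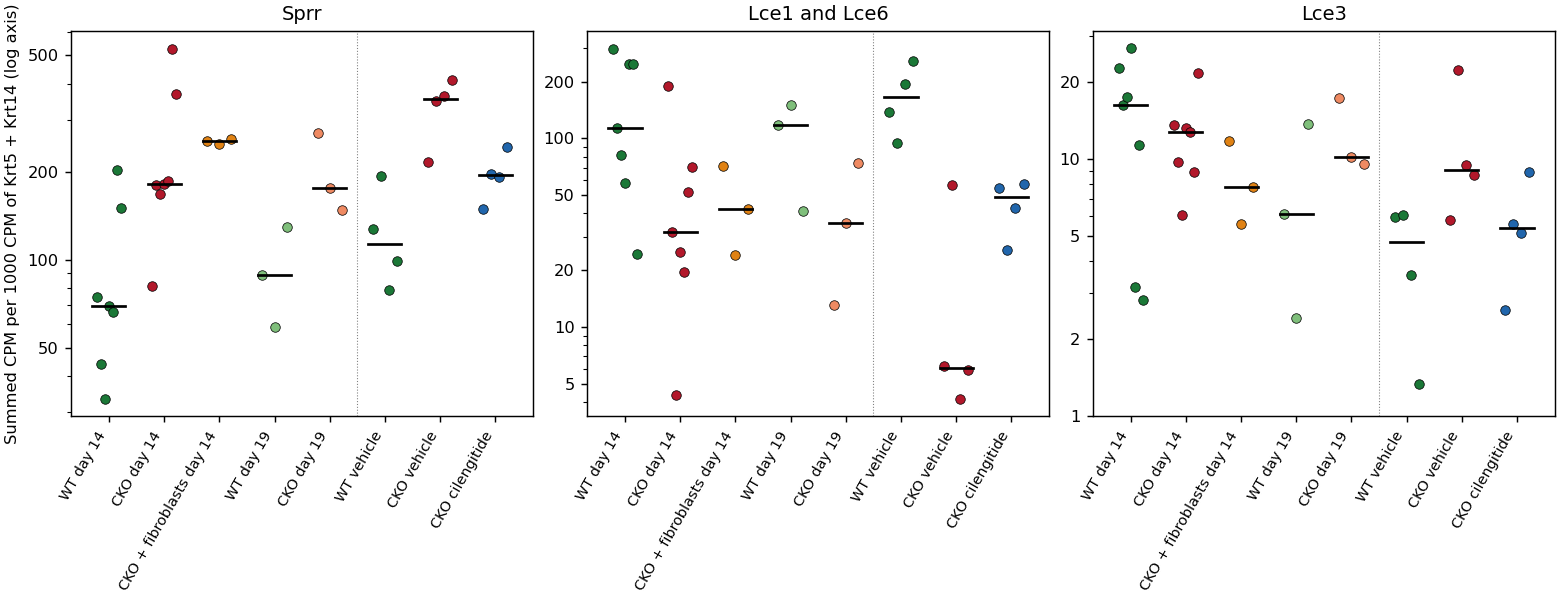
Summed CPM of the Sprr, the Lce1 and Lce6, and the Lce3 genes per 1000 CPM of Krt5 plus Krt14 (vertical, log axis) for each wound by group, with a bar at the median and a dotted line between the experiments. At day 14, at day 19 and under vehicle the Col5a1CKO medians of the Sprr genes are above the WT medians, and those of the Lce1 and Lce6 genes are below.

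At day 19 no member was called. Of 15135 genes tested, 0.0198% were called higher and 0% lower in Col5a1CKO wounds, and of 37 members 0 were called in either direction by edgeR. At an unadjusted p below 0.05 there were 3, of which 2 were lower, while of all genes 1786 were higher and 1866 lower. DESeq2 called 1 member higher and 2 lower, and 684 and 713 of all genes. Without WT replicate c edgeR called 1 member lower, and 412 of all genes higher and 600 lower. These member counts are too small to set against those of all genes. The medians were 1.43 for the 13 Sprr genes tested (12 positive), 0.64 for Lce3, -1.92 for the 14 Lce1 and Lce6 genes (all negative) and -1.59 for the single genes, beside -0.01 over all genes. Sprr2k had 0.416, 1.27 and 2.51 CPM in the 3 WT wounds and 17.44, 3.07 and 3.97 CPM in the 3 Col5a1CKO wounds (log2 fold change 2.61, SE 0.96, adjusted p = 0.183). Sprr4 had 6.58, 2.23 and 0.934 CPM in WT and 0.476, 0.275 and 0.291 CPM in Col5a1CKO wounds (log2 fold change -3.16, SE 0.82, adjusted p = 0.132). Sprr2k was higher and Sprr4 lower in each Col5a1CKO wound, the only members of the 37 whose groups were apart, while 14% of all genes were apart and higher and 16.4% apart and lower. Lce1m had 71.7, 224 and 10.27 CPM in WT and 4.81, 6.47 and 25.58 CPM in Col5a1CKO wounds, with overlap (log2 fold change -2.94, SE 1.17, adjusted p = 0.201), and Lce1i was at -1.87 (SE 0.79, adjusted p = 0.215). Crnn was at -4.24 (SE 1.74, adjusted p = 0.208) and Flg2 at -2.05 (SE 0.85, adjusted p = 0.21). The medians of the 14 Lce1 and Lce6 genes ran from 13.09 (Lce1h) to 92.97 CPM (Lce1a1) in WT and from 3.72 (Lce6a and Lce1h) to 19.08 CPM (Lce1a1) in Col5a1CKO wounds. A test of the difference between the genotype effects of day 19 and day 14 called 0 of 15954 genes by edgeR (938 at an unadjusted p below 0.05; DESeq2 called 24 higher and 16 lower). By edgeR all 39 members had a positive difference, with a median of 1.14, and 0 had an unadjusted p below 0.05. Hrnr had the smallest (adjusted p = 0.957). Scaled by library size only, 36 were positive, with a median of 0.63. All day 19 wounds and only part of the day 14 wounds are in the upper library set, so day was not separated from library set.

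Fibroblast injection asked whether WT fibroblasts change the Col5a1CKO wound. Against uninjected Col5a1CKO wounds, 0% of 15659 genes were called higher and 0% lower by edgeR (201 higher and 1800 lower at an unadjusted p below 0.05; DESeq2 called 9 and 10). None of the 39 members was called by either tool or reached an unadjusted p below 0.05. The medians were 0.82 for Sprr, 0.96 for Lce1 and Lce6, -0.05 for Lce3 and -0.01 for the single genes, beside -0.04 over all genes. Within the upper library set, which holds all injected wounds and 2 uninjected ones, the medians were -0.13 for Sprr and -0.33 for Lce1 and Lce6, so their sign depended on the set. Sprr2b had 135.8, 233.3 and 47.18 CPM in them and from 0 to 205.4 CPM in the uninjected wounds (log2 fold change 1.88, SE 1.95, adjusted p = 0.664), so the injected wounds lay within or just above the wide range of the uninjected ones. Sprr2a1 was at 1.11 (SE 1.43, adjusted p = 0.731), Lce1f at 1.22 (SE 1.86, adjusted p = 0.774), Lce1k at 1.14 (SE 1.82, adjusted p = 0.783), Crnn at -1.17 (SE 1.26, adjusted p = 0.671) and Lor at 1.64 (SE 2.23, adjusted p = 0.746). The medians of the 14 Lce1 and Lce6 genes ran from 9.80 (Lce1h) to 73.78 CPM (Lce1a1) in the injected wounds, where Krt5 plus Krt14 was 7779.3 to 19013.3 CPM.

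Against the same 7 WT wounds used above, the injected wounds had higher Sprr2e and lower Hrnr, Ivl, Flg2, Rptn, Crnn and Lce6a. Of 15317 genes, 3.77% were called higher and 2.06% lower, and of 39 members 1 was called higher and 6 lower. Sprr2e rose (log2 fold change 2.0, SE 0.53, adjusted p = 0.0481), with 87.84, 215.3 and 59.67 CPM in the injected wounds and 9.82, 27.72 and 56.18 CPM in WT, and without overlap. The call was lost when any injected wound was left out. Hrnr (-3.74, adjusted p = 0.00552), Ivl (-2.77, adjusted p = 0.00261), Flg2 (-3.45, adjusted p = 0.00777), Rptn (-2.79, adjusted p = 0.0111) and Crnn (-5.58, adjusted p = 0.0279) fell on the log2 scale. So did Lce6a (-2.53, SE 0.62, adjusted p = 0.0333), with 22.4, 14.71 and 11.86 CPM against 34.5, 83.97 and 184.7 CPM in WT. Sprr2i (1.89, SE 0.53, adjusted p = 0.0612) and Lce1g (-2.20, SE 0.59, adjusted p = 0.0527) came close without being called. The 14 Lce1 and Lce6 genes were all negative, with a median of -1.96, and the Sprr genes had a median of 0.85 with 11 positive, beside 0.03 over all genes. All injected wounds were in the upper library set, and 4 of the 7 WT wounds were in the lower. Within the upper set the medians were 0.27 for Sprr and -2.43 for Lce1 and Lce6. With library set as a covariate they were 0.29 and -2.42, and 0 Sprr genes were called higher. The WT median of Sprr2e was 21.8 CPM in the lower and 47.9 CPM in the upper set. Without injected replicate c, 2 members were called lower, as were 73 of all genes. Groups were apart for 13 members, 2 above and 11 below WT, while 9.64% of all genes were apart above and 8.24% below. In the same comparison 3 of 6 suprabasal markers (median -2.52) and 5 of 18 crosslinking and processing genes (median -1.17) fell, and 3 of 5 leukocyte markers rose (median 1.91), with a summed level of 8163.4 to 10241.6 CPM in the injected wounds. None of the 5 hair shaft markers (median -8.14) or 4 wound-edge markers (median -0.34) was called. The part of these values was not tested.

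Between days in WT wounds, Hrnr, Rptn, Ivl and Lce3c were lower at day 19 than at day 14, and most other members were not called. Of 15180 genes, 1.5% were called higher and 4.25% lower at day 19 (227 and 645 genes; 719 and 293 when scaled by library size only, which moved the median of all genes to 0.43), and of 39 members 0 and 4. Hrnr fell from 608.2, 1782.6 and 3791.9 CPM at day 14 to 106.7, 214.1 and 88 CPM (log2 fold change -3.90, SE 0.69, adjusted p = 0.00938). Rptn fell (-3.07, SE 0.53, adjusted p = 0.00857), as did Ivl (-2.12, SE 0.39, adjusted p = 0.0111) and Lce3c (-2.18, SE 0.50, adjusted p = 0.029). Sprr2k (-3.13, SE 0.89, adjusted p = 0.0598), Sprr2g (-2.45, SE 0.81, adjusted p = 0.0964) and Lce1g (-2.20, SE 0.61, adjusted p = 0.0581) were not called. For the 4 called genes and Flg2 every day 19 wound lay below every day 14 wound, 5 of 39 members, as was the case for 9.48% of all genes. Lor (-0.47, SE 1.13, adjusted p = 0.859) and Crnn (0.25, SE 0.98, adjusted p = 0.915) were not called and had higher medians at day 19, 1502.8 against 439.2 CPM and 47.28 against 16.3 CPM. In the day 14 wounds of the upper library set, which holds all day 19 wounds, the medians were 7538 CPM for Lor and 34.49 CPM for Crnn. Within that set the day 19 median was thus lower for Lor and still higher for Crnn. Medians were -1.79 for Sprr, -1.35 for Lce1 and Lce6 and -2.23 for Lce3, beside 0.00 over all genes. Without WT day 19 replicate a or c no member was called. Within the upper library set 8 members were called lower, as were 1521 of all genes. Over all WT wounds 3 of 6 suprabasal markers (median -2.51) and 6 of 18 crosslinking and processing genes (median -1.90) fell at day 19. So did 1 of 4 wound-edge markers (median -1.70). None of 6 basal (median -0.74) or 5 hair shaft markers (median 1.37) was called. Krt1 plus Krt10 averaged 10831.3 CPM at day 19 and 54094.3 CPM at day 14. For that sum every day 19 wound lay below every day 14 wound. The part of these values was not tested.

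In Col5a1CKO wounds, 1.87% of 15327 genes were called higher and 3.85% lower at day 19, and of 35 members 0 were called by edgeR or DESeq2 or reached an unadjusted p below 0.05. The medians were -0.70 for Sprr, -0.39 for Lce1 and Lce6, -0.57 for Lce3 and 0.19 for the single genes, beside -0.12 over all genes. For 38 of 39 members the range of the 3 day 19 wounds lay within that of the 7 day 14 wounds. Sprr2g, for example, had a log2 fold change of -0.84 (SE 1.88, adjusted p = 0.83). Sprr2j-ps was at -1.55 (SE 2.10, adjusted p = 0.699), Lce6a at -1.01 (SE 1.98, adjusted p = 0.804), Lce1m at -1.0 (SE 2.01, adjusted p = 0.808), Flg2 at -1.16 (SE 1.89, adjusted p = 0.754) and Crnn at 0.45 (SE 1.46, adjusted p = 0.886).

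The vehicle-treated wounds gave a second comparison of the genotypes at day 14, at a greater depth. All 14 Lce1 and Lce6 genes, Lor, Ivl, Flg2, Crnn and Sprr4 fell in Col5a1CKO wounds, whereas the Lce3 genes and the other Sprr genes were not called. Of 15434 genes tested, 17.5% were called higher and 13.4% lower. Of 38 members, 0 were called higher and 19 lower. DESeq2 called 0 and 24 members, and 3190 and 2272 of all genes. Without Col5a1CKO replicate 4, 2378 of all genes were called lower, among them 29 members. Of these, 7 were Sprr and 2 were Lce3 genes, and the Sprr median went from -0.22 to -3.69 and that of Lce3 from -1.59 to -4.21, so that the small Sprr and Lce3 differences rested on this wound. The medians over all wounds were -7.26 for Lce1 and Lce6 (-10.09 to -5.87), -7.61 for the single genes, -1.59 for Lce3 and -0.22 for Sprr (6 positive and 8 negative), beside 0.02 over all genes. Groups were apart for 23 members, each below WT, as were 21.4% of all genes.

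Lce1m had 169.1, 67.58, 154.8 and 289.8 CPM in the WT wounds and 0.273, 0, 0 and 0.373 CPM in the Col5a1CKO wounds (log2 fold change -10.09, SE 1.34, adjusted p = 0.0013). Lce1a1 had 422.6, 276.7, 489.4 and 450.1 CPM against 1.40, 0.331, 0 and 7.76 CPM. Both genes were low in each Col5a1CKO wound, with the highest value in replicate 4. Lce1m had 16, 0, 0 and 17 counts there, so that its fitted fold change rests on few counts, and Lce1a1 had 82, 24, 0 and 354. Lce1l (-8.04, SE 1.16, adjusted p = 0.00166) and Lce1h (-6.62, SE 1.13, adjusted p = 0.00297) fell in the same way. The medians of the 14 genes ran from 64.53 (Lce1k) to 436.4 CPM (Lce1a1) in WT and from 0.106 (Lce6a) to 0.865 CPM (Lce1a1) in Col5a1CKO wounds. The Lce3 genes overlapped: Lce3c had 43.66, 36.07, 25.64 and 11.07 CPM in WT and 2.36, 0.221, 0.409 and 23.06 CPM in Col5a1CKO wounds (log2 fold change -2.19, adjusted p = 0.201).

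Among the Sprr genes, Sprr2d had 405.4, 512.8, 273.2 and 48.08 CPM in WT and 88.55, 4.70, 16.56 and 1091.4 CPM in Col5a1CKO wounds (log2 fold change -0.08, adjusted p = 0.97). Sprr1a had 646.5, 1133.2, 308.8 and 576 CPM in WT and 78.25, 3.88, 12.71 and 905.2 CPM in Col5a1CKO wounds. Col5a1CKO replicate 4 was above all WT wounds for Sprr2d and above 3 of 4 for Sprr1a, and the other 3 Col5a1CKO wounds were low for both genes. Sprr4 was different from its family, with 26.57, 33.6, 21.98 and 28.99 CPM in WT and 0.188, 0, 0.0215 and 0.307 CPM in Col5a1CKO wounds, and it fell (log2 fold change -7.81, SE 0.95, adjusted p = 0.00103). The genes of the Sprr2a pair were also apart, below WT, but were not called (-4.48, SE 1.95, adjusted p = 0.0905 for Sprr2a1).

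Of the single genes, Crnn fell from 19.86, 149.7, 18.94 and 179.3 CPM to 0.0683, 0.0276, 0 and 0.0877 CPM (log2 fold change -10.95, SE 1.31, adjusted p = 0.001). Flg2 fell by 10.03 on the log2 scale (SE 1.5, adjusted p = 0.00187). Lor fell from 2359.2, 1526.8, 2346.5 and 2871.0 CPM to 4.11, 0.0967, 0.172 and 21.77 CPM (log2 fold change -8.48, SE 1.88, adjusted p = 0.00829), and Ivl fell by 6.73 (SE 1.38, adjusted p = 0.00609). No Col5a1CKO wound reached the lowest WT wound for any single gene. Rptn, at 15, 0.304, 0.603 and 540.5 CPM in Col5a1CKO wounds, kept a higher level in replicate 4 and was not called (log2 fold change -4.44, SE 2.12, adjusted p = 0.116), and neither was Hrnr (-5.63, SE 2.13, adjusted p = 0.0591).

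**Figure D4:**
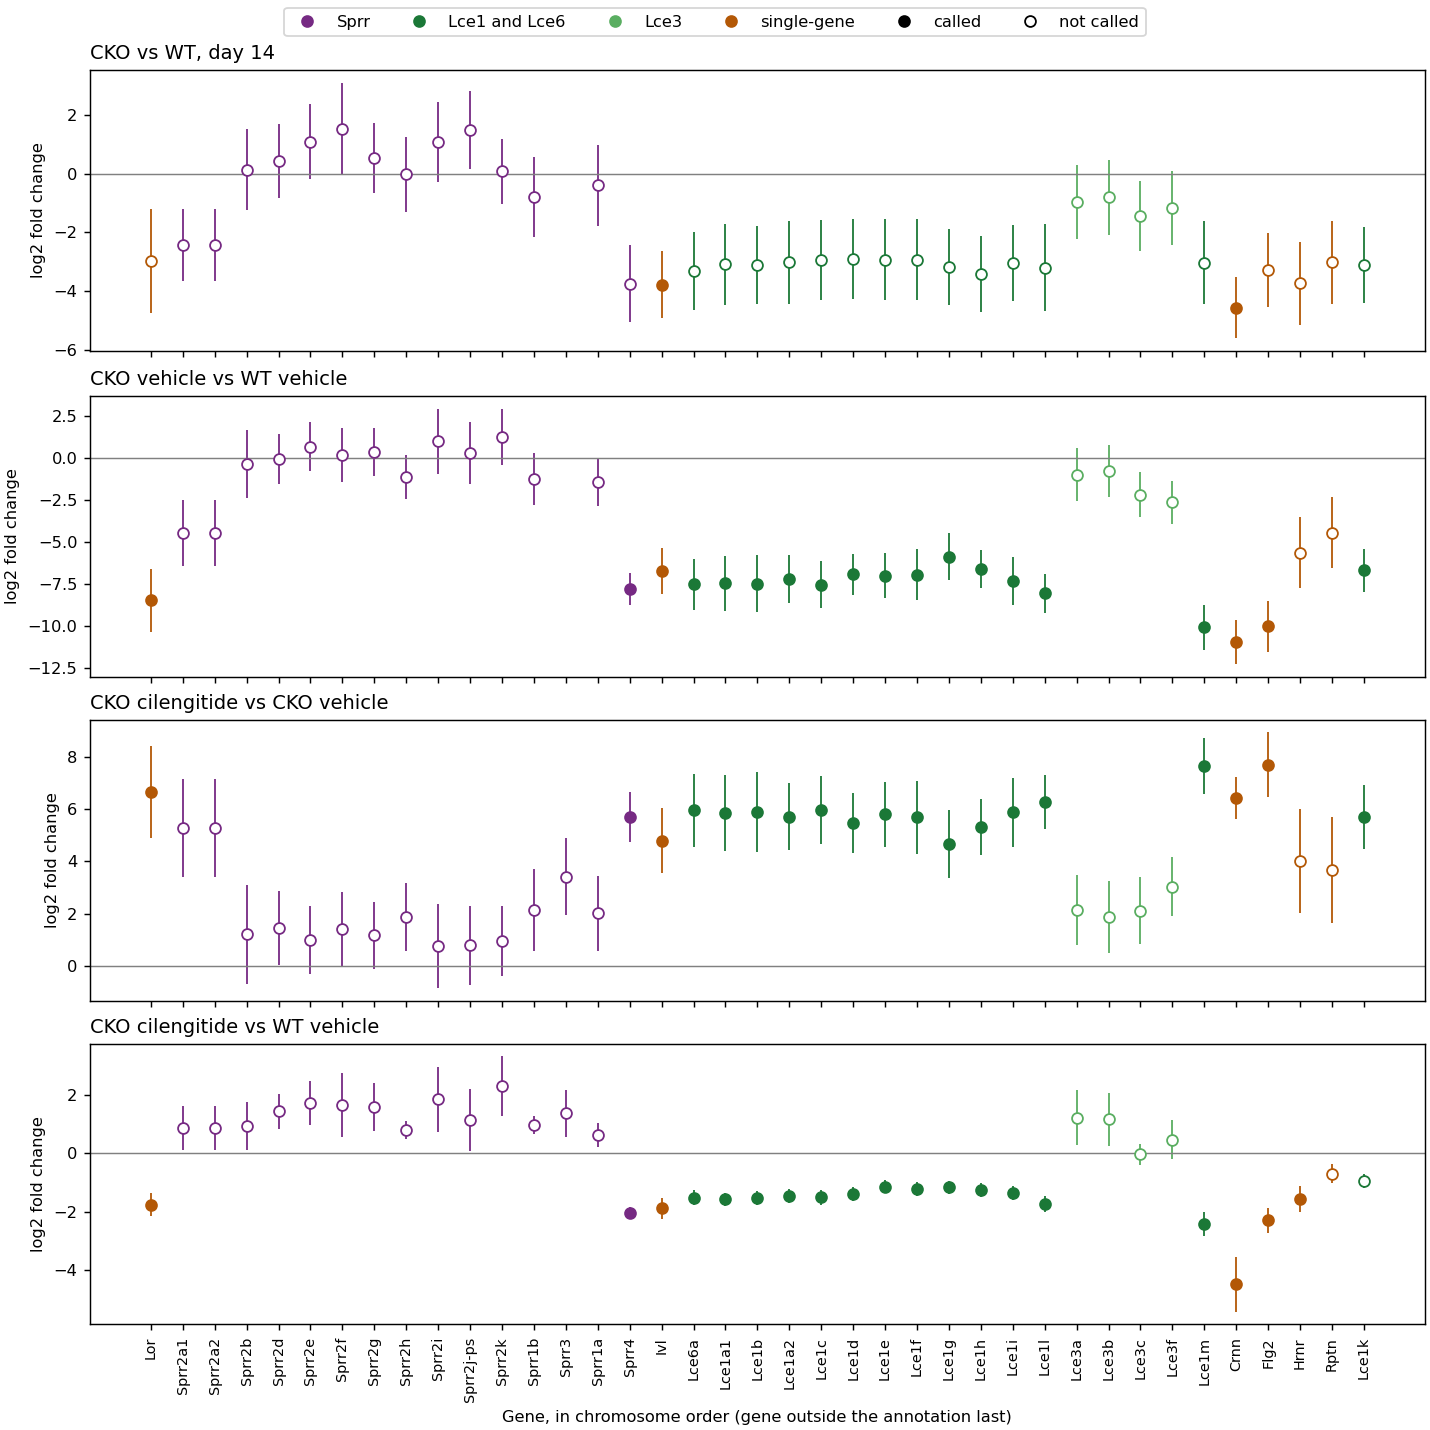
Log2 fold change (vertical) with its SE (bars) for each member in chromosome order (horizontal) in 4 comparisons, with filled points for called genes; Sprr3 was not tested in the first 2 panels. The vehicle panel shows the Lce1 and Lce6 genes between -10.09 and -5.87, the Lce3 genes within their stretch nearer 0, and the Sprr genes mostly nearer 0, with Sprr4 at -7.81 and Sprr2a1 and Sprr2a2 at -4.48.

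Envelope crosslinking and processing genes fell too, 10 of 18 with a median of -4.44, among them Kprp, a keratinocyte proline-rich protein (-6.94), Sbsn, or suprabasin (-4.84), and Cst6, a protease inhibitor of the transglutaminase pathway (-5.55). Of 11 other genes of the differentiation complex 5 fell and 1, the neutrophil gene S100a9 (3.95), rose. Of 13 transcription factors 3 fell, Gata3 (-5.96, adjusted p = 0.000456), Klf4 (-2.69, adjusted p = 0.00685) and Tfap2a (-4.02, adjusted p = 0.0147), and 3 rose, the AP-1 members Fosl1 (2.78, adjusted p = 0.00888) and Junb (2.66, adjusted p = 0.0172) and the oxidative stress factor Nfe2l2 (1.35, adjusted p = 0.0139). Suprabasal markers fell in 3 of 6 (Krt77 -11.2, Krt10 -8.39, Krt1 -7.55) and basal markers in 3 of 6 (Krt15 -7.01, Krt5 -3.65, Itgb4 -2.16). None of 4 wound-edge markers was called (median -1.63). Krt5 plus Krt14 ran from 11200.1 to 20418.3 CPM over WT wounds and stood at 1482.7, 46.78, 149.9 and 10068 CPM in the Col5a1CKO wounds. Leukocyte markers rose in 4 of 5. Their summed level, which again includes S100a8 and S100a9, ran from 193 to 2356.4 CPM over WT wounds and from 2221.9 to 44383.5 CPM over Col5a1CKO wounds. In Col5a1CKO replicate 4, the wound with 44383.5 CPM, the list of other differentiation complex genes summed to 42255.8 CPM. Fibroblast markers rose in 2 of 5 (median 1.01). Hair shaft markers fell in 4 of 5 (median -9.38), their sum running from 33.75 to 800.2 CPM over WT wounds and from 0.345 to 28.94 CPM over Col5a1CKO wounds. The part of these markers in the envelope gene changes was not tested.

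The cilengitide comparison asked whether inhibiting αvβ3 changes the Col5a1CKO wound. Under cilengitide the 14 Lce1 and Lce6 genes, Lor, Ivl, Flg2, Crnn and Sprr4 rose. The comparison shares the vehicle-treated Col5a1CKO wounds with the comparison above, so low values there enter both with opposite sign. Of 15563 genes, 6.48% were called higher and 6.59% lower, and of 39 members 19 were called higher and 0 lower. DESeq2 called 23 and 0 members, and 1382 and 1480 of all genes. The medians were 5.82 for Lce1 and Lce6 (4.65 to 7.64), 5.61 for the single genes, 2.12 for Lce3 and 1.45 for Sprr, beside -0.06 over all genes. Groups were apart for 25 members, each above vehicle, as were 15.8% of all genes.

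Lce1m rose to 38.82, 24.29, 33.81 and 30.61 CPM in the 4 cilengitide-treated wounds (log2 fold change 7.64, SE 1.07, adjusted p = 0.00547). Lce1l rose to 45.37, 26.08, 35.14 and 36.2 CPM, from 0.478, 0.152, 0 and 1.23 CPM (log2 fold change 6.27, SE 1.03, adjusted p = 0.00812). Lce1h rose likewise (5.31, SE 1.07, adjusted p = 0.0139). The treated wounds lay within a narrow band that none of the vehicle-treated Col5a1CKO wounds entered. Flg2 rose to 197.8, 106.6, 116.4 and 108.4 CPM (log2 fold change 7.70, SE 1.23, adjusted p = 0.00739) and Crnn to 5.28, 1.94, 2.47 and 6.79 CPM (log2 fold change 6.43, SE 0.80, adjusted p = 0.00398). Lor rose to 1234, 377.5, 549.2 and 518.9 CPM (log2 fold change 6.66, SE 1.75, adjusted p = 0.03) and Ivl to 182.3, 123.4, 98.52 and 74.73 CPM (log2 fold change 4.79, SE 1.25, adjusted p = 0.0292). For these genes too every treated wound was above every vehicle-treated Col5a1CKO wound.

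Of the 15 Sprr genes 1 was called, Sprr4, at 4.33, 6.89, 7.42 and 8.24 CPM (log2 fold change 5.71, SE 0.96, adjusted p = 0.0087). Sprr2d had 587.8, 1176.2, 769.8 and 805.4 CPM, above 3 of the vehicle-treated Col5a1CKO wounds and below replicate 4. Sprr2a1 was at 5.27 (SE 1.87, adjusted p = 0.073). Lce3f had 16.67, 41.81, 25.57 and 32.17 CPM against 2.0, 0.249, 0.409 and 11.36 CPM, without overlap, and was not called (log2 fold change 3.04, SE 1.14, adjusted p = 0.0843). Hrnr (4.01, SE 1.98, adjusted p = 0.168) and Rptn (3.67, SE 2.02, adjusted p = 0.21) were not called either. Leaving out vehicle-treated Col5a1CKO replicate 4 raised the calls from 19 to 38, which included 14 Sprr and all 4 Lce3 genes. Leaving out cilengitide replicate 1 lowered them to 12. Higher calls over all genes went from 1008 to 1674 and 724 in turn. Krt5 plus Krt14 was 15853 to 26563.7 CPM in the treated wounds. Markers rose in 3 of 6 suprabasal and 2 of 6 basal genes and fell in 3 of 5 leukocyte genes. None of 4 wound-edge markers was called (median 2.68), and 2 of 5 hair shaft markers rose. Gata3 (4.36), Klf4 (2.10) and Tfap2a (3.46) also rose. The part of these values was not tested.

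Set against vehicle-treated WT wounds, the cilengitide-treated wounds had lower Lce1, Lce6 and single genes, while the Sprr genes leaned the other way. Of 15514 genes, 5.15% were called higher and 3.43% lower, and of 39 members 0 were called higher and 19 lower: 13 Lce1 and Lce6 genes, Sprr4, Crnn, Flg2, Hrnr, Ivl and Lor. Medians were -1.43 for Lce1 and Lce6, -1.82 for the single genes, 0.81 for Lce3 and 1.15 for Sprr (14 of 15 positive), beside -0.01 over all genes. Lce1m had a log2 fold change of -2.42 (SE 0.41, adjusted p = 0.0193), Lce1l of -1.73 (SE 0.27, adjusted p = 0.0193) and Flg2 of -2.30 (SE 0.42, adjusted p = 0.0195). Ivl (-1.89, SE 0.36, adjusted p = 0.0202) and Crnn (-4.49, SE 0.94, adjusted p = 0.0229) fell, and Sprr4 fell as well (log2 fold change -2.05, SE 0.22, adjusted p = 0.015). The only member of the 39 whose treated wounds were all above WT was Sprr2d, and 19 members were all below, while 12.3% of all genes were apart above and 12.9% below. Sprr1b had 942.9, 1312.7, 1217.9 and 690.4 CPM under cilengitide and 675.4, 761.3, 392.8 and 342.6 CPM in WT wounds (log2 fold change 0.95, SE 0.31, adjusted p = 0.0598), with overlap. Leaving out cilengitide replicate 2, 3 or 4 removed every lower call, also among all genes, while the Lce1 and Lce6 median was -1.3, -1.42 and -1.38 in turn. Without vehicle-treated WT replicate 2, 5 members were called higher, as were 1192 of all genes. Without replicate 3, 12 members and 196 of all genes were called lower. In the same comparison 4 of 6 suprabasal markers (median -1.23) and 3 of 5 hair shaft markers (median -6.40) fell. So did 8 of 18 crosslinking and processing genes (median -0.93) and 1 of 6 basal markers (median -0.02). None of 4 wound-edge markers was called, but all were positive (median 1.09) and 3 were above WT in every treated wound. Leukocyte markers rose in 3 of 5 (median 1.91), and all 5 were above WT in every treated wound. Their part was not tested.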

How the data were processed

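Single-end reads were aligned to mm9 with HISAT2, and per the study's methods the authors counted uniquely aligned reads over RefSeq exons in SeqMonk; how the cilengitide libraries were counted is not separately stated. The authors deposited the results as raw counts per gene in 2 tables, 1 for each experiment, with 15043531 to 35700325 counts (median 21280989) and 51211600 to 68266760 counts (median 57274437) per library. Unnamed entries (at most 0.0694% of counts) were left out, and for symbols listed more than once the entry with the largest total was used. The members and gene lists were chosen with earlier results of these data known.

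Each comparison was fitted on its own libraries with edgeR 4.0.16 (R 4.3.3): TMM scaling, filterByExpr with a minimum count of 10, the quasi-likelihood test with robust dispersion, and Benjamini-Hochberg adjustment over all genes tested. Called genes had an adjusted p below 0.05 and at least a 2-fold change. Standard errors were derived from the fold change and its F statistic and are approximate. Alternatives were DESeq2 1.42.0, RLE scaling, library size only, no filter, all groups in one fit, a replicate block, sums over repeated symbols, fits within or adjusted for library sets, and leaving out each wound. RPKM, computed for the time-course only and used only to order genes, divided raw counts by the library total over all entries, without TMM, and by the deposited transcript length. Per the study's methods, n counts separate biological replicates; the labels do not tie the wounds to animals. By rule, statistics are given for the single genes and the 3 Sprr and 3 Lce genes with the smallest adjusted p in the day 14, vehicle and cilengitide against Col5a1CKO vehicle comparisons, and for 2 of each family elsewhere; the other named members were chosen after their values were seen. The scripts were tested on simulated data.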

Additional observations from a re-analysis of the deposited data

Results flagged for a closer look

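Of 88 sets of 4 to 10 wounds examined for a wound standing apart from its group, 3 had one, where chance gives about 5%. In Col5a1CKO wounds at day 14, the Sprr mean less the Lce mean was 2.22 log2 units in replicate c, while the other 6 wounds lay between -0.0982 and 0.843. Sprr4 was at 0.101 log2(CPM + 1) in WT day 14 replicate c, while the other 6 WT wounds lay between 3.54 and 5.24. Flg2 was at 7.64 log2(CPM + 1) in cilengitide-treated replicate 1, while the other 3 treated wounds lay between 6.75 and 6.88.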

How the results depend on the processing

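The counts of called members depended on the wounds and the tool in the time-course and less so under vehicle. At day 14, the 2 members called lower in Col5a1CKO wounds became 19 by DESeq2, 8 with all groups in one fit, 1 by library size only, 1 with no filter, 1 within the lower and 0 within the upper library set, and 1 to 19 when a wound was left out. At day 19 DESeq2 called 1 higher and 2 lower, and leaving out a wound gave 0 to 1 lower. Fibroblast-injected against WT wounds, the 1 member called higher became 4 by DESeq2, 2 by library size only, 0 by RLE scaling, with no filter, in one fit, with sums over repeated symbols or with the library set as a covariate, and 0 to 0 when an injected wound was left out; the 6 called lower became 20 by DESeq2, 1 in one fit, 18 within the upper set, 20 with the covariate and 2 to 4 on leaving out an injected wound. Between days in WT, the 4 called lower became 12 by DESeq2, 0 in one fit, 8 within the upper set, 8 with the covariate and 0 to 5 on leaving out a wound. Leaving out a wound gave 19 to 29 lower under vehicle, 12 to 38 higher for cilengitide against vehicle-treated Col5a1CKO, and 0 to 5 higher and 0 to 20 lower against vehicle-treated WT. There DESeq2 called 2 higher, and 1 was lower in one fit. The causes were not tested, other than that fits with fewer wounds have less power. Counts over all genes moved as well. DESeq2 called 859 higher and 1186 lower of all genes in injected against WT wounds, and 654 and 1316 between days in WT. The library set covariate, the unpaired fit and some left-out wounds were chosen after seeing the data. Under DESeq2, RLE scaling and library size only, the family medians kept their sign in every comparison, except those of Lce3 and the single genes in injected against uninjected Col5a1CKO wounds (-0.05 and -0.01, and 0.03 and 0.07 by library size only). That scaling also moved the median of all genes at day 19 from -0.01 to -0.39.

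Replicate letters are shared between groups. At day 14 the deviations of 5 of the 7 same-letter pairs correlated positively (0.229 to 0.572) and those of d and e did not (-0.081 and -0.462). No comparison had every pair above 0.1, and the labels give the letters no meaning, so they were not taken as pairs. With the letter as a replicate block, 5 members were called lower at day 14; 19 were higher in injected against uninjected Col5a1CKO wounds (27 in the same wounds unpaired); 9 were higher and 19 lower in injected against WT wounds (9 and 18 unpaired); 1 was higher and 12 lower between days in WT (1 and 9 unpaired); and 5 were higher between days in Col5a1CKO (19 unpaired). Of all genes, 1415 were higher with the block and 1704 unpaired in injected against uninjected Col5a1CKO wounds. The Col5a1CKO wounds with letters a to c were all in the lower library set and their partners in the upper. In the fits on these letters library set can therefore not be told apart from injection or from day.

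Some log2 fold changes changed sign. For injected against uninjected wounds these were Lce1f (-0.19 within the upper set, -0.27 with the covariate), Lce1k (-0.01 with the covariate), Lor (-0.08 with the covariate) and Crnn (0.60 with the replicate block, 0.92 unpaired). Between days in Col5a1CKO they were, blocked and unpaired, Sprr2j-ps (2.86 and 2.53), Sprr2g (2.09 and 1.66), Lce6a (3.76 and 3.46), Lce1m (3.82 and 4.19, and 1.78 by DESeq2) and Flg2 (3.0 and 2.58), and, on leaving out a wound, Crnn (-3.26 to 1.02, the lowest without replicate c of day 19). Taken as a log2 ratio of summed CPM, the Sprr to Lce balance moved to -0.76 (WT, day 14), 2.10 (Col5a1CKO, day 14), 2.35 (injected), -0.22 (WT, day 19), 1.98 (Col5a1CKO, day 19), 3.96 (Col5a1CKO, vehicle) and 1.97 (cilengitide), with group means of -2.12, 0.71, 0.43, -1.74, 0.32, 1.97 and 0.92 as reported.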

Other observations

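Within WT wounds at day 14, several members differed between the library sets. Lor had a median of 360.4 CPM in the 4 wounds of the lower set and 7538 CPM in the 3 of the upper set, Sprr1a 146.6 and 1301 CPM, and Lce1m 75.35 and 350.8 CPM. Rptn (7056 and 2874 CPM), Hrnr (2635 and 1177 CPM) and Lce3b (54.74 and 17.93 CPM) were the other way round. The GC content of the transcripts had a median of 48.8% over the Sprr genes, 55.8% over the Lce genes and 50.7% over the single genes.

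The Sprr2a1 count was 0.296% of the Sprr2d count in the time-course and 27.9% in the cilengitide experiment. Levels of these genes are therefore not comparable between the tables.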
